A study of Mus musculus with 5 samples.

Results

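The comparison described here is that of ribonucleoprotein immunoprecipitates (RNP-IPs) labelled as induced for myc-tagged AUF1 p42 with RNP-IPs labelled as uninduced. It takes 4 of the 5 arrays of the series, 2 in each group, chosen by their titles, and leaves the total RNA array out. All RNP-IPs came from NIH/3T3 cells, an immortalised mouse embryonic fibroblast line, that stably carried the pBSwitch regulator and the pSLHGC-MYC-AUF1 p42 vector, both retroviral, so the uninduced cells held the same vectors. For the RNP-IPs, cells of the induced group were given 1 nM mifepristone for 24 h and those of the uninduced group none. This gives no control for mifepristone itself. By the methods, infected cells had earlier been selected with blasticidin while kept in 1 nM mifepristone, so both groups had met the drug before. RNA bound to anti-c-myc agarose beads was amplified in 2 cycles and hybridized to Affymetrix Mouse 430 2.0 GeneChips. The methods describe 2 independent RNP-IPs for each condition, and the p-values below measure the spread between these alone.

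AUF1, encoded by Hnrnpd, is a family of alternatively spliced proteins that bind AU-rich elements in the 3′ untranslated regions of mRNAs and can change how long those mRNAs persist. In an RNP-IP, mRNAs held by a tagged protein are pulled down with it, and some RNA sticks to the beads whether or not the tagged protein is there. A higher value on an array of induced RNP-IPs is therefore a larger part of the precipitated RNA. It does not by itself measure the level of the mRNA in the cell. The values were normalized to the same overall distribution on every array, so a lower value is lower relative to the rest of the precipitate. Less binding of an mRNA, more of the others and a changed level of the mRNA in the cell cannot be told apart in these data.

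Hnrnpd itself was lower in the RNP-IPs labelled induced. It read log2 6.72 and 7.39 on the arrays labelled induced, as against 11.35 and 11.85 on the uninduced arrays. Both induced values lay far below both uninduced ones, a difference of -4.55 on the log2 scale (SE 0.35, limma adjusted p = 0.141), and all 3 of its probe sets pointed the same way, from -4.80 to -2.25. Whether the 3 probe sets can detect vector-derived AUF1 mRNA was not analysed here. The study also probed the tagged protein by Western blot and measured chosen mRNAs by RT-PCR in RNP-IPs. Neither was used here. Every direction below is that of the labels.

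Between 17547 and 17770 of 45101 probe sets on each array were above a background level of log2 4.26, the 95th percentile of 84 probe sets for olfactory, vomeronasal and taste receptors. The fibroblast genes Col1a1, Col1a2, Fn1, Vim and S100a4 were at log2 10.11 or more on every array, whereas Fap and Lum were at background, and none of 39 markers of fibroblasts and 6 other cell types was called. All 5 endothelial markers were at background on every array, and of the other cell types' markers Epcam (6.88 to 6.99), Krt8 (4.29 to 4.62), Rbfox3 (4.92 to 5.41), Cd3e (4.68 to 5.16) and Fabp4 (7.83 to 9.58) were above it on all 4 arrays. Arrays of the same group were closer to each other (509 probe sets at least 3-fold apart between the induced pair, 962 between the uninduced pair) than arrays of different groups (1700 to 2925). The 5′ Gapdh control read 8.18 and 4.24 in induced and 3.65 and 7.81 in uninduced RNP-IPs, so each group held 1 array with high and 1 with low 5′ signal. Actb (13.41 and 11.25 against 10.97 and 12.77) and the ribosomal protein mRNA Rplp0 (13.21 and 11.88 against 11.50 and 13.55) followed the same order, and their groups overlapped.

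A gene was called when its 2 group means were at least 3-fold apart and the limma adjusted p, computed over all probe sets, was under 0.5, the study's own thresholds. That level lets false calls make up 50% of the calls. Of 18193 genes, each read from its brightest probe set, 259 were called higher in the induced RNP-IPs (1.42%) and 479 lower (2.63%). Among the 10043 genes whose mean was above background the shares were 2.56% higher and 4.73% lower. Over all probe sets, 554 were called higher (1.23%) and 861 lower (1.91%). No probe set reached an adjusted p under 0.05, the smallest being 0.118 from limma, and 5202 had an unadjusted p under 0.05. The median difference over all genes was 0.0023, and the median called gene was 4.09-fold higher or 4.08-fold lower.

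The 2 groups did not overlap for any of the 738 called genes, which the thresholds favour. Leaving out 1 array at a time, 126 of the 259 higher and 204 of the 479 lower genes were called in all 4 of the resulting fits, and these calls are termed stable below. The number of lower genes was 271 without induced replicate 1 and 760 without induced replicate 2. The number of higher genes was 403 without uninduced replicate 2 and 243 to 296 without any other array. In arrays of like 5′ control signal, induced replicate 1 against uninduced replicate 2 and induced replicate 2 against uninduced replicate 1, the sign is the same by construction where the groups do not overlap, and 180 of the higher and 310 of the lower genes were at least 3-fold apart in both pairs.

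**Figure D1:**
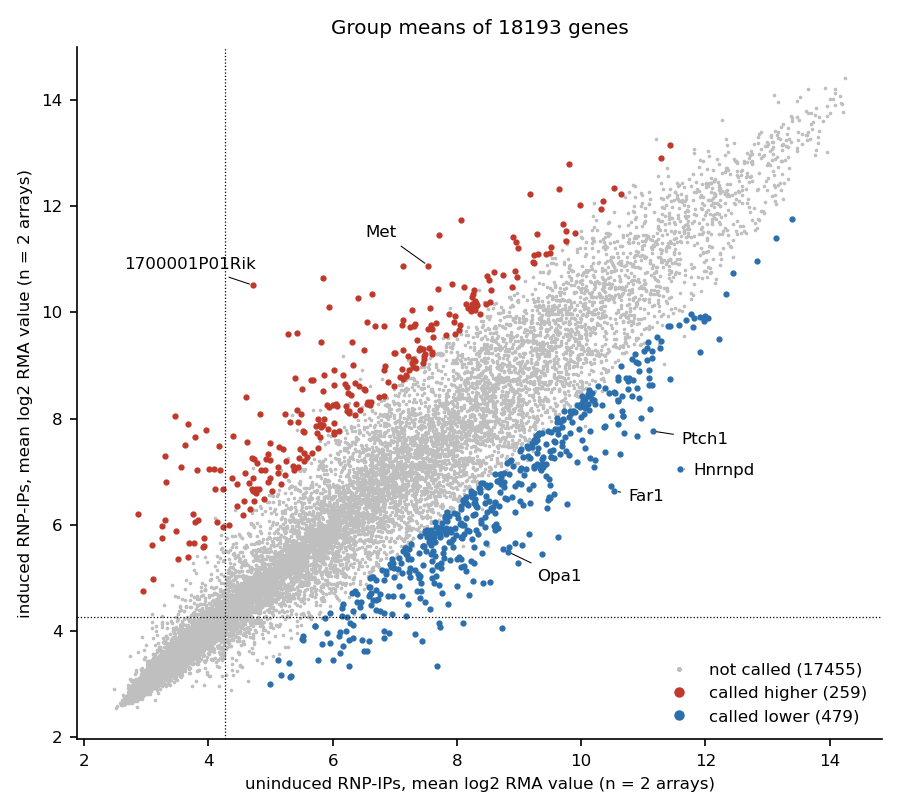
Mean log2 RMA value of each gene in the 2 induced RNP-IPs (vertical axis) against the 2 uninduced RNP-IPs (horizontal axis), with 259 genes called higher in red, 479 called lower in blue, and the background level of log2 4.26 as dotted lines. Hnrnpd lies among the lowest genes relative to its uninduced level, and 1700001P01Rik is the farthest above the cloud.

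**Figure D2:**
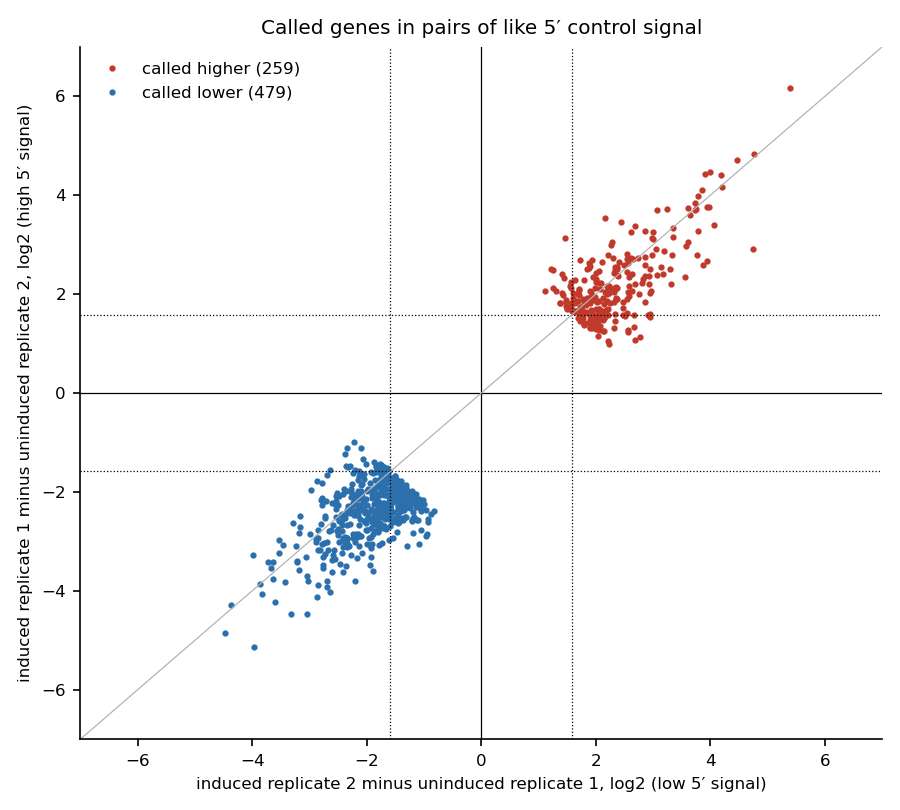
Log2 difference of each called gene in the arrays of low 5′ control signal (horizontal axis, induced replicate 2 minus uninduced replicate 1) and of high 5′ control signal (vertical axis, induced replicate 1 minus uninduced replicate 2), with dotted lines at 3-fold. The quadrants are fixed by the groups not overlapping, and 180 of 259 higher and 310 of 479 lower genes lie beyond the dotted lines on both axes.

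A call belongs to a probe set before it belongs to a gene. The second brightest probe set was above background for 116 of the higher genes, and 26 of these were called higher as well, 75 had a difference of the same sign and 3 were called lower, with a median of 0.32 on the log2 scale. For the lower genes the numbers were 274 with a second probe set above background, 59 called lower too, 202 of the same sign and 12 called higher, with a median of -0.62. Most second probe sets thus did not share the call of the first, and each call below is that of the gene's brightest probe set, with other probe sets given for some genes. Lists of genes are described by how many of their measured members were called and by the median difference, next to the 1.42% and 2.63% of all genes. None of the 7840 genes with both group means at or under background was called, so for lists made up mostly of expressed genes the nearer shares are 2.56% higher and 4.73% lower. Among genes whose brighter group was between log2 8 and 10, 4.42% were higher and 9.03% lower.

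The genes named first are those with the largest differences outside the list of enriched mRNAs that was published from these arrays, since that list was chosen on the same values. It left out, among others, sequences lacking both a predicted function and a human homologue, and outliers of very high enrichment. Unlike the comparison here, it counted total RNA among the controls. Of its 482 genes with a probe set of their own, 228 were called higher here and 20 lower. Outside it were 31 of the 259 higher and 459 of the 479 lower genes.

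Many of the higher genes outside that list were poorly characterised loci, which the sequences left out of it favour. By RefSeq class, 11 of all 259 higher genes were long non-coding RNAs, and all 11 were outside the list, against 1355 long non-coding RNAs among the 18193 genes tested. The largest difference of all was that of 1700001P01Rik, at log2 10.64 and 10.37 in induced and 4.98 and 4.47 in uninduced RNP-IPs, which is 55.1-fold higher (SE 0.24 on the log2 scale, adjusted p = 0.118). Its second probe set, close to background, differed by 0.41 and was not called. ND5, a mitochondrially encoded subunit of respiratory complex I, was at 9.87 and 10.35 against 6.43 and 5.45. The long non-coding RNA 2810408I11Rik was at 9.99 and 10.55 against 6.61 and 6.22, or 14.5-fold higher. 4930486L24Rik stood at 8.46 and 8.65 against 5.33 and 5.67. In each of these the lower induced array was at least 2 log2 units above the higher uninduced one, and the calls were stable.

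Snhg3, a non-coding host transcript of a small nucleolar RNA, was at 8.33 and 7.84 against 4.70 and 5.77, 7.21-fold higher. Eldr, a long non-coding RNA named for its place next to Egfr, was at 7.68 and 8.30 against 6.08 and 5.66, and its other probe set was at background. Bsg and Pcolce2 were less even. Bsg, which encodes basigin, a partner of monocarboxylate transporters in the plasma membrane, was at 8.60 and 7.28 against 4.73 and 6.16 (adjusted p = 0.459). Pcolce2, which encodes an enhancer of procollagen C-terminal processing, was at 8.57 and 7.95 against 5.09 and 6.73 (adjusted p = 0.442). The gap between the groups was narrower than the distance between the uninduced replicates in both genes, and neither call was stable: that of Bsg ended without induced replicate 1 or uninduced replicate 1, and that of Pcolce2 without these or induced replicate 2. The call of Snhg3 ended without induced replicate 1.

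Prps1l3, related to phosphoribosyl pyrophosphate synthetases, gave opposite answers on its 2 probe sets, one 2.25 higher (9.07 and 9.42 against 7.05 and 6.93) and one -4.03. Tmem267, a predicted membrane protein, differed by 1.97, and the loci Gm527 and Gm3716 by 2.12 and 1.96. For genes at background in both uninduced arrays only a least fold can be given, on the log2 values with background as the floor. It was at least 8.15-fold for 4732491K20Rik (7.23 and 7.35), 6.85-fold for the pseudogene 2700099C18Rik (6.48 and 7.60), 5.81-fold for 9230116N13Rik, 3.87-fold for 9230112D13Rik and 2.65-fold for 8430436N08Rik. Ces1g, a carboxylesterase better known from liver, was at least 3.58-fold higher at 5.23 and 6.96, and its call ended without induced replicate 2 or without either uninduced array. Loci with Rik or Gm symbols as a whole, 1750 genes of which most were near background, had 17 members called higher and 5 lower and a median difference of 0.02.

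Protein-coding genes made up 473 of the 479 lower genes, 246 of the 259 higher ones and 16468 of the 18193 tested. Below Hnrnpd, and among genes above background on all 4 arrays, Hectd2 and Far1 were the farthest down. Hectd2, a ubiquitin ligase of the HECT type, was at log2 4.92 and 6.00 in induced and 9.60 and 9.15 in uninduced RNP-IPs, 15.1-fold lower (SE 0.49 on the log2 scale, adjusted p = 0.189). Far1, a reductase of fatty acyl-CoA that supplies fatty alcohols for ether lipids, was at 5.97 and 7.31 against 10.63 and 10.43, 14.9-fold lower (SE 0.57, adjusted p = 0.215). Phf14, a chromatin protein with PHD fingers, was at 5.82 and 7.65 against 10.69 and 10.29. Its induced replicates were far apart, and the call ended without uninduced replicate 1.

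Sec24a, which selects cargo for COPII vesicles, was at 4.83 and 5.72 against 9.36 and 8.60. Gtf2a1, the large subunit of the general transcription factor TFIIA, was at 4.91 and 4.94 against 8.61 and 8.44, the most even of these genes (difference -3.61, SE 0.08, adjusted p = 0.118). Tmem47, a membrane protein, was at 4.57 and 5.22 against 8.87 and 7.99. Msl2, a ubiquitin ligase in the complex that acetylates histone H4, was at 4.85 and 6.41 against 9.43 and 8.65, and was not called without uninduced replicate 1. Ptch1, the Hedgehog receptor, was at 7.40 and 8.13 against 11.32 and 10.98, 10.4-fold lower. Nexn, an actin-binding protein of fibroblasts and muscle, was at 5.30 and 6.34 against 8.99 and 9.33. Opa1, a GTPase that fuses mitochondrial inner membranes, was at 5.08 and 5.91 against 9.13 and 8.51. That no induced value overlapped an uninduced one in these genes was a condition of their selection.

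The other probe sets of Hectd2 and Ptch1 were at background in both groups and carry no information on a change. Second probe sets of Far1 (-1.88), Phf14 (-1.98) and Opa1 (-1.91) were called lower as well, those of the last 2 genes with both induced arrays at background. Further probe sets above background differed by -0.50 and 0.14 in Far1, -0.78 in Gtf2a1 and -1.47 in Tmem47, and were not called. Both arrays of the induced group were at background for 30 lower genes. The brightest of these outside the published list were Zfp81 (at least 11.0-fold lower) and Zfp800 (at least 10.7-fold), both zinc finger proteins, and Ythdc2 (at least 9.03-fold), an RNA helicase that reads N6-methyladenosine. They were followed by the uncharacterised AU041133 (at least 5.89-fold), the ubiquitin protease family member Usp53 (4.99-fold) and Rfx3, a transcription factor of ciliated cells (4.89-fold). Of these calls only that of AU041133 was not stable, ending without induced replicate 1.

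**Figure D3:**
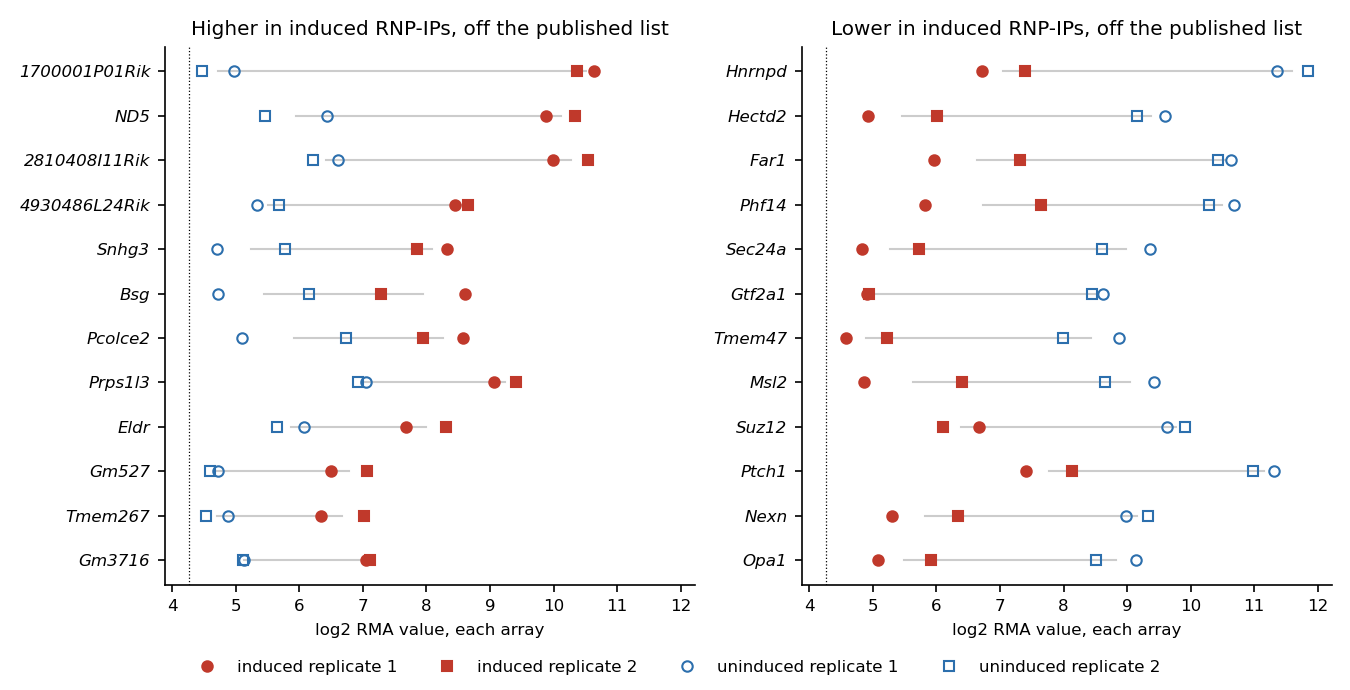
Log2 RMA value on each of the 4 arrays for the 12 highest genes outside the published list (left) and the 12 lowest genes outside it (right), all above background on every array, with induced RNP-IPs as filled red and uninduced as open blue symbols, circles for replicate 1, squares for replicate 2, grey lines between the group means and the background level dotted. Separate groups were required for a gene to be drawn here, and Bsg and Pcolce2 show the widest replicates relative to the gap.

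To describe functions, 62 lists of protein families and pathways were read, holding 3886 genes, of which 66 were called higher and 159 lower. Of the 66 higher members 64 belong to the published list, and of the 159 lower members 4 do. A list chosen for enrichment on these arrays favours that split, so neither count is independent evidence of direction. Kmt5b (listed as Suv420h1), Spast and Tnpo1, named below as lower, are on that list. The lists with at least 4 called members are drawn in the bar plot of gene lists.

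**Figure D4:**
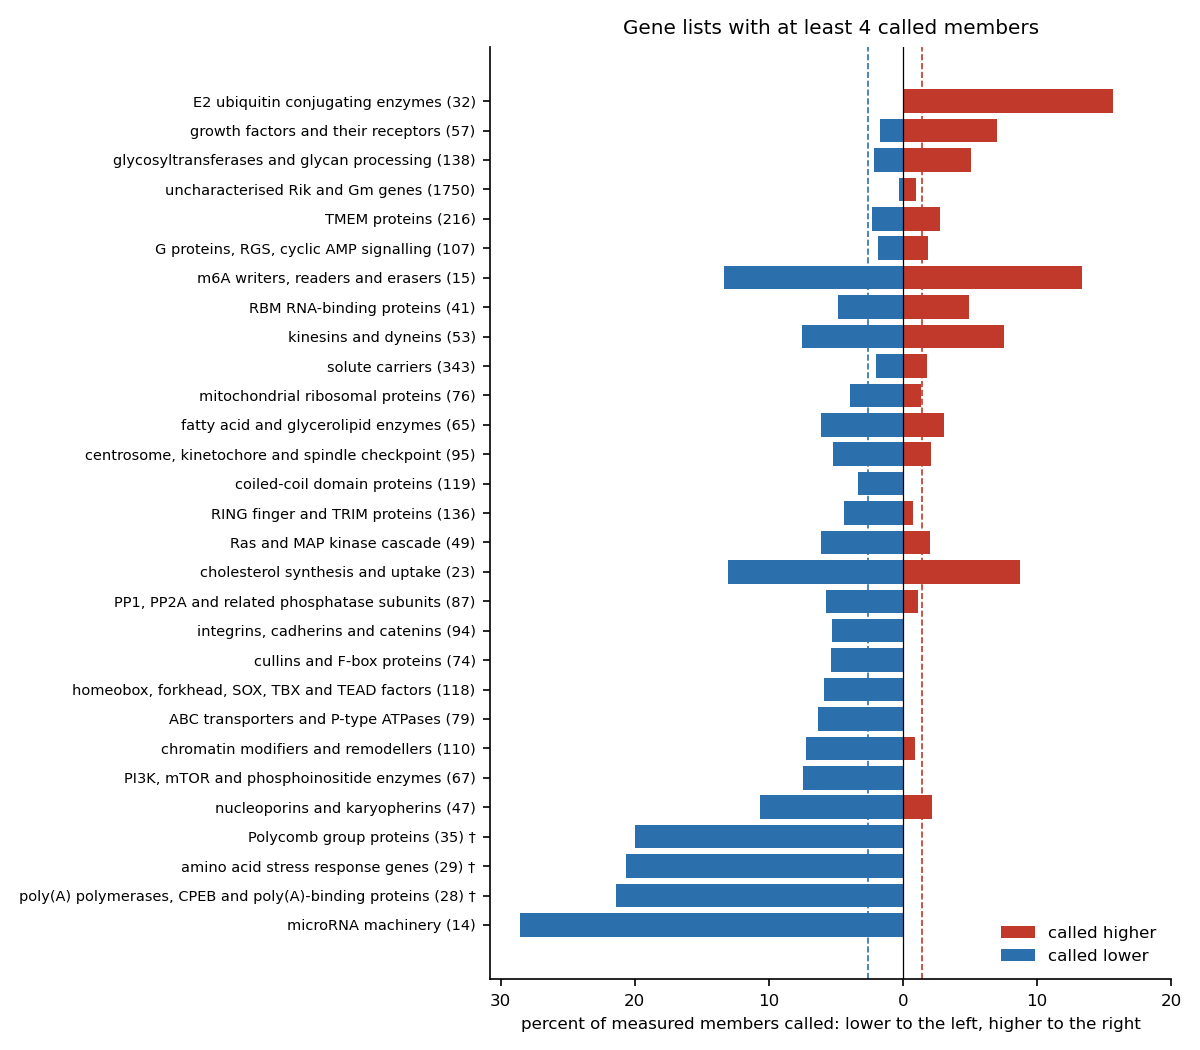
Percent of the measured members (number in brackets) of each gene list called lower (blue, to the left) and higher (red, to the right) in induced RNP-IPs, for lists with at least 4 called members. Dashed lines mark the shares over all genes, 2.63% lower and 1.42% higher, and a dagger marks lists added after values had been seen.

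MicroRNAs are cut from hairpins by Drosha and Dicer1 and guide Argonaute proteins, which silence mRNAs through TNRC6 proteins. Of 14 measured members 4 were called lower (28.6%) and none higher, with a median difference of -0.97 on the log2 scale. Drosha was at log2 7.93 and 8.84 against 11.02 and 10.83 (5.83-fold lower, adjusted p = 0.224). The scaffold Tnrc6b was at 6.57 and 6.49 against 8.85 and 8.93 (5.13-fold lower, SE 0.06 on the log2 scale, adjusted p = 0.118). Its relative Tnrc6a was at 10.03 and 9.49 against 11.29 and 11.86. Tarbp2, the partner of Dicer, was at 4.67 and 6.05 against 7.25 and 7.25. As for every called gene, the groups were separate for all 4, and Tarbp2 was the least even. Its other probe set was lower too, at -1.59, while other probe sets differed by up to 0.49 in Tnrc6a and 0.32 in Drosha, both close to background, and by -0.61 and 0.38 in Tnrc6b. Those of Drosha and Tnrc6b were stable calls. Leaving out 1 array gave 3 to 5 lower members, and none was called higher in any of these fits.

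Of 110 chromatin modifiers and remodellers 8 were called lower (7.27%), and the median difference was -0.19. Of the 98 members above background 8.16% were lower, next to 4.73% of all such genes. Phf13, a reader of histone H3, was called higher (10.50 and 10.38 against 7.64 and 7.77, 6.67-fold). Suz12, a core subunit of Polycomb repressive complex 2, was at 6.68 and 6.10 against 9.63 and 9.91 (10.5-fold lower, SE 0.27, adjusted p = 0.143). The others were Phf14, the retinoblastoma-binding protein Arid4a (3.99-fold lower), Phf20l1 (-1.89), the remodellers Chd9 (-1.94), Smarcad1 (-1.81) and Smarca1 (-1.77), and the histone H4 methyltransferase Kmt5b (-1.59). Of these Suz12 and Chd9 were stable. The lower count was 4 without induced replicate 1, and 4 members were then higher. It was 12 without induced replicate 2, and the higher count was 5 without uninduced replicate 2.

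Suz12 belongs to the Polycomb group, whose proteins keep developmental genes silent, and a list of 35 members was drawn up after values had been seen. In it 7 were called lower and none higher, with a median of -0.06. Besides Suz12 and the PRC2 cofactors Aebp2 (8.77 and 9.34 against 10.68 and 11.14) and Mtf2 (7.44 and 8.17 against 9.88 and 9.37), these were the PRC1 ligase Rnf2 (-1.69), its partner Phc3 (-1.67), the corepressor Bcor (6.02 and 5.99 against 8.11 and 8.07) and Asxl2 (-2.30). The enzyme Ezh2 and the core subunit Eed were not called. Ezh2 was at 10.60 and 10.48 against 9.66 and 9.76. Other probe sets of Bcor and Asxl2 were higher, by up to 1.47 and 0.93, and the calls of Suz12, Bcor and Asxl2 were stable. Without induced replicate 1 the count of lower members was 3, and without uninduced replicate 1 it was 5.

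Of 118 homeobox, forkhead, SOX, T-box and TEAD genes, 7 were lower (5.93%) and none higher. Foxp2 was at 5.28 and 5.89 against 8.11 and 7.75, Sox11 at 5.83 and 5.84 against 8.35 and 7.89, and Tbx18 at 4.67 and 5.35 against 7.24 and 7.26. Each of these stood about 5-fold lower and its call was stable, though another probe set of Tbx18 differed by 1.30 in the opposite direction. Six4 (-2.62), Meis2 (-1.92), Hoxa9 (-1.76) and Hoxa3 (at least 2.38-fold lower) made up the rest, and all 4 probe sets of Meis2 were lower, from -2.08 to -1.47. The orphan nuclear receptors Nr2f2 (5.49 and 5.19 against 7.43 and 8.35) and Nr2f1 (4.90 and 5.84 against 7.77 and 7.81), which are close relatives, were the 2 lower members among 49 nuclear receptors and coregulators. The count of lower homeobox and related genes was between 5 and 10 without 1 of the arrays.

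In the general transcription machinery Gtf2a1 was the 1 gene of 90 called lower, against 2 called higher, Polr2d, a subunit of RNA polymerase II (9.26 and 8.72 against 6.25 and 7.42), and Med19, a Mediator subunit outside the published list (7.57 and 8.96 against 6.78 and 5.97, adjusted p = 0.499). Neither of these was called without induced replicate 2, when 7 members were lower, and 5 members were higher without uninduced replicate 2.

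Proteins that handle RNA appeared on both sides. Among writers, readers and erasers of N6-methyladenosine, 2 of 15 were higher, the writer-associated ligase Cbll1 (8.07 and 8.44 against 6.56 and 5.44) and the methyltransferase Mettl16 (9.22 and 8.61 against 6.13 and 7.51), and 2 were lower, the readers Ythdc2 and Ythdf3 (8.30 and 9.24 against 10.84 and 10.59). Only the call of Ythdc2 was stable, and neither higher member was called without induced replicate 1 or without induced replicate 2. Among RBM proteins Rbm25 (2.24) and Rbmx (1.66) were higher and Rbm39 (-1.97) and Rbm14 (-1.83) lower. The other probe sets of Rbm25 above background differed by -1.38, -0.70 and 0.31 and that of Rbmx by -0.42, whereas all 12 of Rbm39 had negative differences, from -2.52 to -0.27. Of these 4 the call of Rbm39 was stable, and without induced replicate 2 the RBM list had no higher and 4 lower members.

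Dhx36, a helicase that unwinds G-quadruplexes and has been linked to AU-rich mRNA decay, was at 6.22 and 6.28 against 8.77 and 9.10, 6.44-fold lower, with all 3 probe sets lower. In the same family of 51 helicases Ddx31 was higher, at 7.38 and 8.30 against 5.81 and 5.81, though not without induced replicate 2. Dus4l, a tRNA dihydrouridine synthase, was at 8.04 and 7.77 against 3.78 and 3.57, at least 12.5-fold higher, while Elp4 and Ctu2, which modify the tRNA wobble base, were 3.01-fold and 3.00-fold lower and lost their calls without induced replicate 1 or without uninduced replicate 1. Of 52 spliceosomal proteins 2, Lsm2 and Lsm3, were higher and none was lower, and neither was called without induced replicate 1.

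Enzymes and cofactors of the poly(A) tail were put together after their values had been seen. Of 28 measured, 6 were called lower and none higher, and the median was -0.58. Papola, the canonical poly(A) polymerase, was at 6.68 and 7.95 against 9.86 and 9.75, and its relative Papolg at 5.91 and 6.50 against 8.63 and 7.94. Paip1, which joins the poly(A)-binding protein to translation initiation, was at 6.33 and 8.02 against 10.19 and 9.67. The deadenylase Parn was 4.28-fold lower, and of the cytoplasmic polyadenylation factors Cpeb2 was at 3.29 and 4.37 against 6.88 and 6.07 and Cpeb4 differed by -1.60. Only the call of Cpeb2 was stable, and the count was 2 without uninduced replicate 1 and 4 to 6 without any other array.

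Of 47 nucleoporins and karyopherins 5 were lower (10.6%, or 11.6% of the 43 above background), the importins Kpna2 (8.67 and 9.11 against 10.92 and 10.93), Kpna4 (-1.96), Ipo7 (-1.72) and Tnpo1 (-1.59) and the pore protein Nup85 (-1.77), while the importin Kpna3 was higher (9.85 and 9.61 against 6.65 and 7.83). All 3 probe sets of Kpna3 were higher, from 1.46 to 3.06, whereas those of Tnpo1 ran from -1.59 to 2.63. Kpna2 was the stable call, and the lower count was 2 without induced replicate 1 or without either uninduced array. Among 14 proteins of the nuclear lamina, a list added later, Lmna, which encodes lamins A and C, was at 8.20 and 9.08 against 11.02 and 11.28. The inner membrane protein Lemd3 was at 6.42 and 7.76 against 10.36 and 10.04, 8.62-fold lower, and Tmpo was higher (11.31 and 10.86 against 9.15 and 9.33). These 3 calls were stable, although another probe set of Tmpo differed by -1.10.

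Ubiquitin conjugating enzymes (E2) receive ubiquitin and pass it to a protein through a ligase. Of 32 E2 genes 5 were called higher (15.6%) and none lower, with a median of 0.57 on the log2 scale. All 5 are on the published list, which was chosen on these arrays. Ube2a was at 10.79 and 11.62 against 9.30 and 8.66, 4.67-fold higher (adjusted p = 0.284). Ube2r2, the E2 of cullin ligases, was at 10.15 and 10.53 against 8.21 and 8.31 (4.24-fold, SE 0.17, adjusted p = 0.144). Ube2c, which acts with the anaphase-promoting complex, was at 9.53 and 9.05 against 6.84 and 7.95, Ube2j2 of the endoplasmic reticulum at 8.82 and 8.74 against 6.62 and 7.56, and Ube2d3 at 12.86 and 12.96 against 11.47 and 11.10. As for every called gene, the groups did not overlap for any of the 5. The calls of Ube2a and Ube2r2 were stable, and the count was 2 without induced replicate 2 and 3 without uninduced replicate 1. Ube2d3 has 7 probe sets that differed by between -2.59 and 1.89. Read from the probe set of largest absolute difference, 5 E2 genes were called higher and 3 lower.

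Cullins and F-box proteins had no member called higher and 4 of 74 lower, of which Fbxo11 (6.89 and 7.06 against 8.75 and 8.78) and Fbxw7, the receptor for cyclin E and Myc (6.42 and 6.63 against 8.13 and 8.34), were stable calls. Ligases of the RING and TRIM families were lower in 6 of 136 cases, among them Rnf157 (5.56 and 5.78 against 9.24 and 8.63, 9.62-fold) and Trim23 (6.62-fold), and Trim21 was higher. Deubiquitinating USP enzymes were lower in 3 of 48, with Usp33 at 6.88 and 7.56 against 10.38 and 10.05 (7.98-fold). Of members above background, 7.84%, 6.74% and 7.69% in that order were lower, next to 4.73% of all such genes. Without induced replicate 1 the lower counts were 2 for cullins and F-box proteins and 3 for RING and TRIM proteins.

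**Figure D5:**
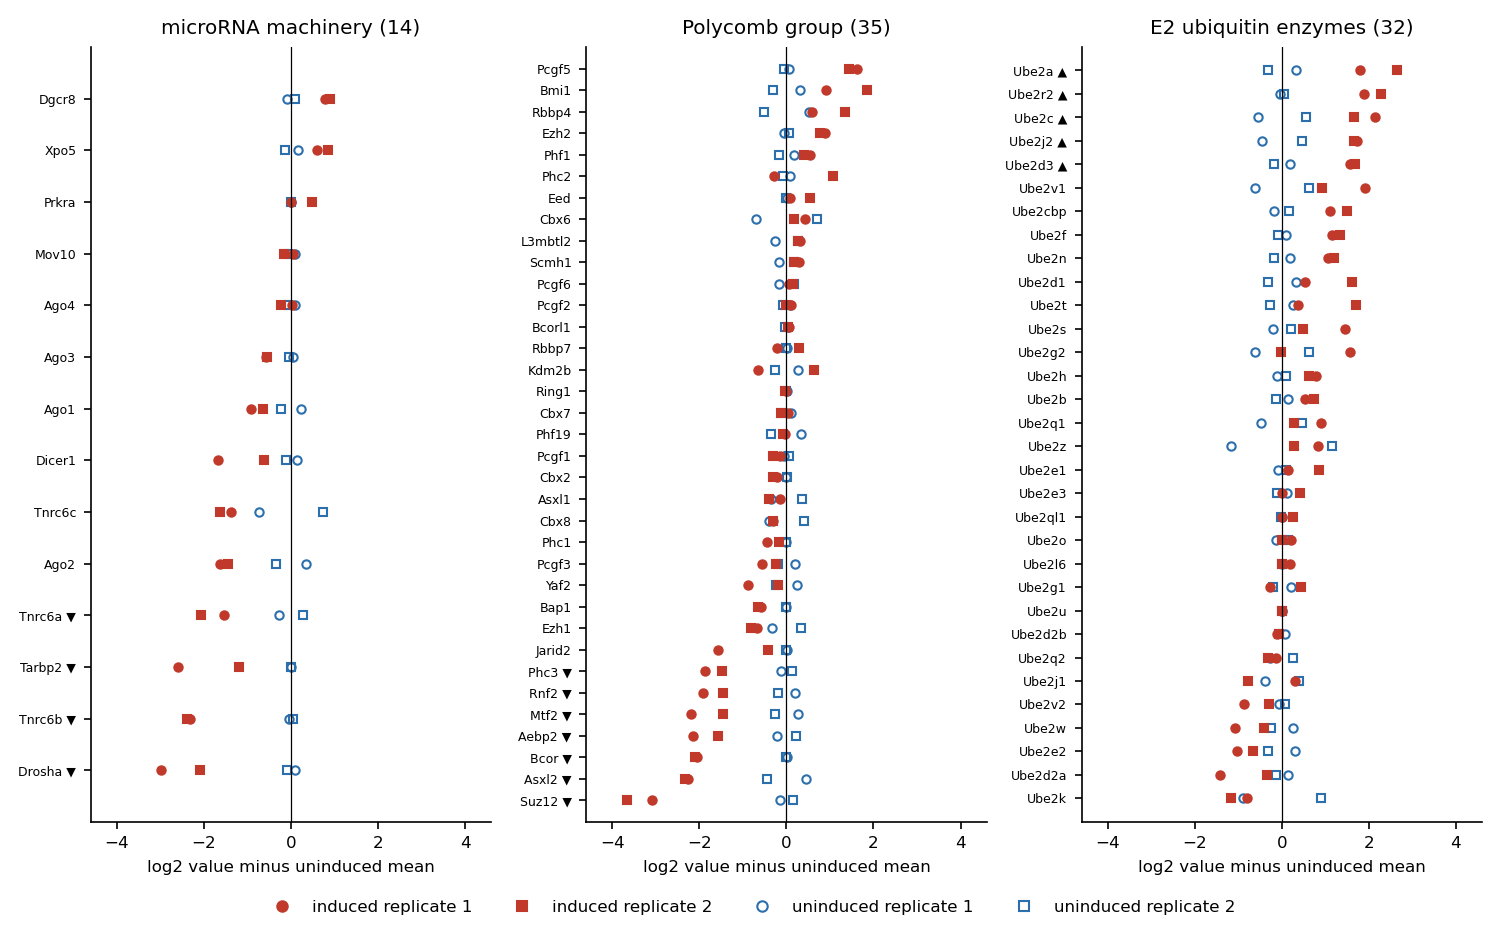
Log2 value on each array minus the mean of the 2 uninduced RNP-IPs, for the measured members of the microRNA machinery (14), the Polycomb group (35) and the E2 ubiquitin conjugating enzymes (32), with induced RNP-IPs as filled red and uninduced as open blue symbols. A triangle beside the name marks members called higher (up) or lower (down), 4 lower in the first, 7 lower in the second and 5 higher in the third.

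Of 138 glycosyltransferases and glycan-processing enzymes, 7 were called higher (5.07%) and 3 lower. All 7 higher members are on the published list. The Golgi mannosidase Man2a2 was at 11.68 and 11.80 against 8.20 and 7.94, 12.8-fold higher (SE 0.12, adjusted p = 0.118). Ext1, which polymerises heparan sulfate, was at 10.04 and 9.62 against 5.85 and 7.25, and Fut8, which adds the core fucose of N-glycans, at 8.33 and 8.22 against 6.21 and 5.90. Alg10b, Alg14 and Dpm1 belong to the assembly of the lipid-linked N-glycan precursor and were 5.42-fold, 3.59-fold and 3.24-fold higher, and the lysosomal Manba was 3.09-fold higher. Of these Man2a2, Alg10b, Fut8 and Alg14 were stable, and the higher count stayed between 6 and 8 without 1 of the arrays. Alg13, which works with Alg14, was among the 3 lower members, but none of those was called without induced replicate 1 or without uninduced replicate 1. The second probe sets of Man2a2 and Ext1 were at background in both groups, and other probe sets of Alg10b and Alg14 differed by -0.99 and -2.22.

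A pair of nucleotide sugar carriers of the Golgi was lower. Slc35a3 was at 5.42 and 5.75 against 9.28 and 8.38 (9.53-fold) and Slc35a5 at 4.33 and 5.48 against 7.82 and 7.45 (6.63-fold, with another probe set at 0.96), in the family of 343 solute carriers with 6 higher and 7 lower members. The amino acid carriers Slc38a2 (8.13 and 9.36 against 11.71 and 11.16), Slc38a1 (-1.85) and Slc7a1 (-1.69) and the chloride cotransporter Slc12a2 (8.37 and 8.49 against 10.71 and 10.61) were lower too. Higher were Slc16a10, a carrier of aromatic amino acids (7.35 and 7.72 against 5.22 and 4.76), the phosphate carrier Slc20a2 (1.86), Slc30a1 (2.37), and, from background, Slc26a4, Slc11a1 and the glucose carrier Slc2a3 (at least 3.48-fold, 3.10-fold and 2.56-fold). Of the solute carriers above background 3.59% were higher and 4.19% lower, near the 2.56% and 4.73% of all such genes. The lower count was 4 without induced replicate 1 or uninduced replicate 1 and 15 without induced replicate 2. Among 79 ABC transporters and P-type ATPases 5 were lower (6.33%) and none higher, the stable ones being Atp13a3 (7.20 and 8.27 against 10.73 and 10.66), the peroxisomal Abcd3 (8.15 and 8.15 against 10.31 and 11.01) and Abca5. The copper pump Atp7a and the Golgi calcium pump Atp2c1 lost their calls without induced replicate 1 or without either uninduced array, which left 3 members in each case.

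In cholesterol synthesis the early and middle enzymes Hmgcs1 (11.45 and 12.07 against 13.54 and 13.26), Idi1 (7.70 and 8.35 against 9.61 and 9.99) and Cyp51 (8.39 and 8.07 against 9.96 and 10.01) were lower, and every probe set of the 3 was lower, from -3.13 to -0.34. The late enzyme Sc5d (9.34 and 10.19 against 7.26 and 6.98) and the sterol carrier Stard4 (9.47 and 10.84 against 8.18 and 8.13) were higher, though each also had a lower probe set (-0.48 and -0.86). That makes 3 lower and 2 higher of 23, and Cyp51 and Sc5d were the stable calls, with 1 lower member called without induced replicate 1 and 1 higher member without any other array. Lpgat1, an acyltransferase of phosphatidylglycerol, was 13.4-fold higher (11.10 and 11.81 against 8.05 and 7.37) and Dgat2, which makes triglycerides, 4.36-fold. Cers2 and Sgpl1, a ceramide synthase and the lyase of sphingosine phosphate, were 4.66-fold and 3.59-fold higher, but Sgpl1 was not called without either induced array or without uninduced replicate 1. Far1, Fads2, Elovl6 and Acsl3, which reduce, desaturate, elongate and activate fatty acids, were lower, and all 3 probe sets of Acsl3 lay between -3.37 and -1.10. Fads2 was at background in the induced arrays and at least 3.59-fold lower, and of these 4 only the call of Far1 was stable. In this list of 65 genes 2 were higher and 4 lower, with 2 lower without induced replicate 1 or without uninduced replicate 2.

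Genes induced when amino acids run short, a list added after its values had been seen, held 6 lower of 29 and none higher, with a median of -0.70. Trib3, a pseudokinase, was at 8.09 and 8.59 against 10.42 and 10.76, and Chac1, which degrades glutathione, at 5.43 and 5.93 against 7.84 and 7.97. The tRNA synthetases Qars (-1.82) and Mars1 (-1.69) and the carriers Slc38a2 and Slc7a1 completed the set. Trib3 and Chac1 were stable, and the count was 10 without induced replicate 2 and 4 without induced replicate 1, when 1 member was higher. Of 35 tRNA synthetases as a whole Qars and Mars1 were the 2 called, at a median of -0.21. For mitochondria, a list of 10 fusion and fission proteins was also added after values had been seen. In it Opa1 and the fission GTPase Dnm1l (5.89 and 6.86 against 9.16 and 8.97) were lower, and both calls were stable. Among 76 mitochondrial ribosomal proteins 3 were lower, Mrpl58 (7.43-fold) being the stable one, and Mrpl49 was 4.38-fold higher. Without uninduced replicate 2 the higher count was 6, and without induced replicate 1 the lower count was 1.

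Among growth factors and receptors 4 of 57 were higher (7.02%) and 1 was lower. All 4 higher members are on the published list. Met, the receptor of hepatocyte growth factor, was at 10.87 and 10.89 against 7.55 and 7.53, 10.1-fold higher (SE 0.04, adjusted p = 0.118), and its second probe set was at background. The fibroblast growth factor receptors Fgfr3 (7.97 and 7.81 against 5.65 and 5.93) and Fgfr1 (7.83 and 7.07 against 5.83 and 5.71) were higher. Vegfd was 3.16-fold higher, and Fgf7, a growth factor that fibroblasts secrete for epithelia, was lower, at 10.03 and 10.65 against 12.47 and 12.19. The calls of Met, Fgfr3 and Fgf7 were stable. The Hedgehog pathway, looked at because of Ptch1, had no other lower member among 14, and the receptor Gpr161 was 3.11-fold higher. Gpr161 was not called without induced replicate 2 or without uninduced replicate 2, and 2 members were lower without induced replicate 2. Integrins, cadherins and catenins held 5 lower members of 94 (5.32%) and none higher. Of these, 4 were cadherins and protocadherins (Cdh10, Pcdhb17, Pcdhb20 and Pcdh11x) and the fifth was Itgb5. Without induced replicate 1 there were 3 lower and 1 higher.

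The PI3K, mTOR and phosphoinositide list of 67 genes also took in Rps6ka3 and Rps6ka5, kinases of the MAP kinase cascade. Of its members 5 were lower and none higher. Among these were Rps6ka3 (6.21 and 7.63 against 9.81 and 9.07), Rps6ka5 (-1.86) and Rictor of mTOR complex 2 (5.87 and 5.93 against 7.36 and 7.82). Pik3c2a and the phosphatase Mtm1 were lower too. None of the 5 was stable, and 1 member was lower without induced replicate 1 or without uninduced replicate 1, against 8 without induced replicate 2. Of 49 members of the Ras and MAP kinase cascade, Araf (7.05 and 7.52 against 9.06 and 9.97), Nras (-1.74) and the inhibitor Spred1 (-2.14) were lower and Map2k6 higher, and no member was called lower without induced replicate 1. Phosphatase subunits were lower in 5 of 87, with the calcineurin subunit Ppp3cb at 7.66 and 8.37 against 11.26 and 10.67 (7.73-fold), and Ppp2cb, a catalytic subunit of PP2A, was 6.60-fold higher. Above background the lower share was 10.2% in the PI3K list, 8.33% in the Ras list and 8.20% for phosphatases. Over all such genes it was 4.73%. Without induced replicate 1 Ppp2cb was not called and 2 subunits were lower, and without uninduced replicate 2 the higher count was 6. Gnaq, the G protein of phospholipase C, was 5.66-fold lower and Rgs4, which turns such G proteins off, 4.41-fold lower, whereas Gng12 was 5.46-fold higher, all 3 being stable.

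Cytoskeletal motors were called on both sides, 4 higher and 4 lower of 53 (7.55% each way). Dynlrb1, a light chain of dynein, was at 10.17 and 10.00 against 7.60 and 7.51 (5.77-fold), and the mitotic kinesin Kif11 at 8.61 and 8.61 against 7.01 and 6.96. Kif26b and Kif14 rose from uninduced values at background (at least 3.31-fold and 1.65-fold). Kif2a, a microtubule depolymerase, was at 6.49 and 6.65 against 9.38 and 9.74 (7.96-fold lower), and the heavy chains Kif5b and Kif5c of conventional kinesin and Dync2li1 were about 3-fold lower. Dynlrb1, Kif11, Kif26b and Kif2a were stable, and 1 motor was lower without induced replicate 1. The microtubule-severing enzyme Spast was 14.6-fold lower on its brightest probe set (5.62 and 5.92 against 9.78 and 9.49) and 1.91 higher on the other. Mical1 and Diaph2, regulators of actin filaments, were lower, at 4.09 and 5.29 against 8.15 and 8.22 and at 3.88 and 4.41 against 8.13 and 7.30, with 1 induced array at background each. The smooth muscle actin Actg2 (4.46-fold) and the nonmuscle myosin Myh10 (4.01-fold) were lower as well.

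Cenpc1, which anchors the kinetochore to the centromere, was at 5.71 and 5.60 against 8.45 and 8.48, a difference of -2.81 (SE 0.06, adjusted p = 0.118). Among 95 centrosome, kinetochore and checkpoint genes 5 were lower and 2 higher (Cep76 and Cep19), with 1 lower member without induced replicate 1, 2 without uninduced replicate 1 and 9 without induced replicate 2. Cohesin and condensin genes were lower in 3 of 23 and higher in none, Ncapg2 of condensin II (6.86 and 7.66 against 9.81 and 9.33), the cohesin loader Nipbl (6.03 and 6.79 against 8.87 and 8.36) and Pds5b. Replication genes held 1 higher member of 52, Rfc3, which was not called without either induced array, and 4 lower members without induced replicate 2. DNA repair genes held 3 lower of 64, Parp3, Fancl and Fancb, and 1 without induced replicate 1. Above background the lower share was 6.10% for the centrosome list and 6.38% for DNA repair, next to 4.73% of all such genes. Autophagy proteins (30), the tricarboxylic acid cycle (24), the circadian clock (19) and the nonsense-mediated decay and exon junction list (11) had no member called in either direction, with medians between -0.10 and 0.11. Without uninduced replicate 2, 3 autophagy genes and 2 of the tricarboxylic acid cycle were called higher.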

How the data were processed

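Immunoprecipitated RNA was hybridized to 1 array per RNP-IP. The authors deposited log2 expression values made by robust multi-array averaging (RMA), which corrects background, normalizes quantiles and summarises probes, for 45101 probe sets. These were used without further normalization, so array number and signal over background, not read depth, limit precision. Differences (mean of 2 induced minus mean of 2 uninduced arrays) were tested by moderated linear models (limma 3.58.1, R 4.3.3, 2 residual degrees of freedom) with Benjamini-Hochberg adjustment over all probe sets. A check on simulated data asked only that known differences be recovered on average, and set no limit on false calls. Each gene was read from the probe set with the highest mean over the 4 arrays among those annotated to that gene alone. Folds against a group with both arrays at background are lower bounds.

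Named were Hnrnpd, reference genes, the 12 highest and 12 lowest genes outside the published list above background on all arrays, the 6 brightest on each side with the dimmer group at background, and up to 2 genes per direction in each list. The highest, lowest and brightest genes were taken from called genes whose groups did not overlap. Other list members were named after their values were seen. Members and lists were chosen with earlier results of these data known, and 6 lists were added and some list patterns corrected after values were seen. Total RNA was left out. Alternatives changed the normalization, the filter, the variance prior, the arrays, the pairing and the thresholds.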

Additional observations from a re-analysis of the deposited data

How the results depend on the processing

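Beside 554 higher and 861 lower probe sets and 259 higher and 479 lower genes, the counts were 286, 368, 124 and 186 with a replicate block. The replicate numbers were not taken as pairs, and whether same-numbered RNP-IPs were prepared together is not stated. Deviations of same-numbered arrays correlated at -0.50. Crossing the numbers, chosen after seeing the data, gave 647 and 968 probe sets and 299 and 532 genes. At an adjusted p under 0.05 all 4 counts were 0 by limma (5202 probe sets and 2609 genes had an unadjusted p under 0.05), and at a fold of 2 they were 1180, 1739, 592 and 990. Leaving out 1 array gave 508 to 793 higher and 535 to 1237 lower probe sets and 243 to 403 higher and 271 to 760 lower genes. Without induced replicate 1, 535 probe sets and 271 genes were lower, without induced replicate 2, 760 genes were lower, and without uninduced replicate 2, 403 genes were higher. Reading each gene from its probe set of largest difference gave 430 higher and 648 lower genes and reversed Prps1l3 to -4.03 (adjusted p = 0.238). Median centring, quantile normalization, cyclic loess, the filter, the floor, total RNA among the controls and a trended prior kept all 4 counts within 1.5 times. The cause of these changes was not tested. Hnrnpd was called lower, from -4.88 to -4.21, in every alternative but the adjusted p under 0.05.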
